A study of Arabidopsis thaliana with 33 samples.

Results

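The cytochrome P450 gene family of Arabidopsis thaliana was followed through 5 genotypes of 12-day-old seedlings. Its members were taken as the genes whose deposited name is CYP followed by a family number and a subfamily letter, which gave 232 of the 32823 genes listed. They belong to 43 families and 65 subfamilies, and 5 of the names end in P, the mark of a pseudogene. Members whose names in the tables do not follow this scheme were not counted, and 4 further genes are not analysed here, so the set is most of the named family and not all of it. The seedlings were untreated and grown on plates in long days. They were the wild type Col-0 (WT), an hhp1 T-DNA insertion line, a triple mutant of mbd1, mbd2 and mbd4 (mbd124), a quadruple mutant of the sant genes labelled sant1234-null, and an hda6 T-DNA insertion line. The labels name no allele or insertion site. RNA-seq was made from all 5 genotypes with 3 replicates each, and ChIP-seq of acetylated histone H3 (H3ac) with input from WT, sant1234-null and hda6 with 3 replicates each, 33 samples in all. The series concerns a domesticated Harbinger transposase and its complex with HDA6, a histone deacetylase, so the comparison with WT addresses which P450 genes gain or lose RNA and H3ac when parts of that machinery are mutated.

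Cytochrome P450s are heme enzymes that use electrons from NADPH, passed on by a P450 reductase, to insert oxygen into small molecules. In plants they make and break down hormones such as brassinosteroids, gibberellins and abscisic acid, and they build lignin, flavonoids, cutin, sterols, glucosinolates, camalexin and triterpenes. Many stand in tandem arrays of close copies, and some stand beside unrelated genes of the same pathway in biosynthetic gene clusters, such as the thalianol and marneral clusters of roots.

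The family is recognised by the loop around the cysteine that binds the heme iron. A loop of 10 codons in either of the usual forms was found in the coding sequence of 223 of the 232 members, in RefSeq TAIR10.1, whose gene starts and ends equal those of the files for all 232. Of the 85 members called changed in RNA below, 83 hold such a loop. CYP74B2 and CYP716A2 do not, with coding sequences of 1155 and 957 bases beside a median of 1527. The cysteine codon was TGT in 166 members and TGC in 57. The loops of 8 members on which the results below turn are shown 5′ to 3′ on the coding strand, with the cysteine codon in capitals and the position in RefSeq TAIR10.1. They show how far DNA of the same function differs between members whose RNA is compared.
CYP705A5 chr5:19436247-19436276 (+): ttcggtagcggaaggagagctTGTcctgga
CYP705A12 chr5:17023823-17023852 (-): tttggaggtggaaggaggacaTGTcccgcg
CYP71A16 chr5:17031388-17031417 (-): tttggagcagggagaaggttaTGTcccggc
CYP708A2 chr5:19444463-19444492 (-): tttggaggtggagtgagacagTGTgtcggc
CYP81F2 chr5:23189469-23189498 (+): tttggtaacggacgaagaacgTGTcctggt
CYP71A13 chr2:13110080-13110109 (-): ttcggatcagggagaaggataTGCcccggg
CYP71B15 chr3:9889384-9889413 (+): tttggatctggtaggagaataTGTccaggg
CYP72A10 chr3:4921605-4921634 (+): tttgcatggggaccgaggataTGCatcggc

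Depth and labels were as follows. The tables give 1 FPKM (fragments scaled to transcript length and library size) for each genotype and none for a replicate, so no spread between replicates can be given for a level, and calls rest on the authors' test of each mutant against WT, at an adjusted p under 0.05. The same WT replicates serve all 4 comparisons. The ChIP tables count 69959151 reads over genes in WT, 78316244 in sant1234-null and 68093284 in hda6. Members held between 211 and 12041 reads in WT. MBD1, MBD2 and MBD4 were at 15.5, 17.5 and 21.8 FPKM in WT and at 0.0476, 6.45 and 0.208 in mbd124. Of these falls the authors' test called that of MBD2 but not those of MBD1 and MBD4, so a gene that drops close to 0 can miss the call. HDA6 RNA was at 17.0 FPKM in WT and 18.8 in hda6, so RNA summed over this gene does not check the insertion. The hhp1 and sant genes carry no such symbol in the tables and were not checked here. Leaf markers reached 6260 FPKM in WT, although 1 of the 4, LHCB1.3, is listed at 0 there, at 12620 to 14586 in the mutants, and was not tested. Root markers were between 2.34 and 107 FPKM and flower and seed markers between 0 and 0.567. The 4 root markers summed to 152 FPKM in WT, 153 in hhp1, 157 in mbd124, 170 in sant1234-null and 182 in hda6, with 1 called higher in each of the last 2 and 1 called lower in each of hhp1 and mbd124. The 3 flower markers summed to 0.836 FPKM in WT, 1.94 in hhp1, 0.799 in mbd124, 3.32 in sant1234-null and 1.19 in hda6, and the 1 of them that was tested, PI, was called higher in hhp1 and sant1234-null. The leaf marker BCA1 was called lower in hhp1, where the 3 tested leaf markers had a median log2 change of -0.43. The seed marker CRA1 was called higher in mbd124 and hda6 and the seed marker PAP85, listed at 0 in WT, in sant1234-null. The part of these markers' tissues in the results for members was not tested, and in whole seedlings fewer cells of a type and less RNA per cell cannot be told apart.

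In WT the family was silent about as often as genes in general. Of the members, 92 stayed under 1 FPKM in every table (39.7%, against 39.9% of all genes), 31 of them listed at 0, and the median member was at 3.07 FPKM against 3.33 for all genes. The highest level was that of CYP73A5, the cinnamate hydroxylase of the phenylpropanoid pathway, at 174 FPKM. It was followed by CYP81F4 at 126 and CYP83B1 at 119, both enzymes of indole glucosinolate synthesis. Next came CYP71B7 at 100.4, CYP86A2 of cutin synthesis at 95.2, CYP90A1 of brassinosteroid synthesis at 94.1, CYP706A1 at 94.0, CYP51G1, the sterol demethylase, at 67.7, CYP72A13 at 65.5 and CYP708A2 of the thalianol cluster at 56.7. Levels given for WT are the median of the 4 tables, whose WT columns differ by about 2% from separate scaling. Neighbours in this order such as CYP86A2, CYP90A1 and CYP706A1 lie within a few FPKM of each other, and no replicate error is at hand to separate them.

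P450 genes were called changed at a higher share than all tested genes in each of the 4 mutants. In hhp1, 27 of 161 tested members were called (16.8%, against 6.14% of all genes tested), 20 higher and 7 lower. In mbd124, 32 of 161 were called (19.9%, against 11.3%), 10 higher and 22 lower. In sant1234-null, 51 of 163 were called (31.3%, against 15.3%), 40 higher and 11 lower. In hda6, 47 of 162 were called (29%, against 12.0%), 32 higher and 15 lower. Higher calls made up 12.4%, 6.21%, 24.5% and 19.8% of the tested members in hhp1, mbd124, sant1234-null and hda6, beside 2.88%, 4.85%, 9.33% and 7.25% of all genes. Lower calls made up 4.35%, 13.7%, 6.75% and 9.26%, beside 3.26%, 6.42%, 5.93% and 4.79%. More calls were higher than lower in 3 mutants and fewer in mbd124, but there the order turned, to 7 higher and 5 lower, among the 12 calls with a log2 change of at least 1 in size. The median log2 change of the tested members was 0.11 in hhp1, 0.06 in mbd124, 0.21 in sant1234-null and 0.15 in hda6, against -0.00, 0.01, 0.00 and 0.02 for all tested genes. The authors tested 157 members in all 4 comparisons and 63 in none, and none of those 63 was above 0.483 FPKM in WT. Altogether 85 members were called at least once, 38 in 1 mutant, 28 in 2, 13 in 3 and 6 in all 4. No set test was made, and members are not replicates of a condition.

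P450s of triterpene synthesis rose in several mutants. Of the 14 members listed for triterpene and terpene oxidation, 5 of 9 tested rose and 1 fell in hhp1, 6 of 10 rose and 1 fell in sant1234-null, 3 of 10 rose in hda6 and 2 of 9 rose in mbd124. Beside these stand the shares of all tested genes called higher, 2.88% in hhp1, 9.33% in sant1234-null, 7.25% in hda6 and 4.85% in mbd124. At an unadjusted p under 0.05, 6 were higher in hhp1, 7 in sant1234-null, 5 in hda6 and 2 in mbd124, and the mutants were not tested against each other. Their median log2 change was 0.59 in hhp1, 0.89 in sant1234-null, 0.47 in hda6 and 0.14 in mbd124. Both P450s of the thalianol cluster on chromosome 5 rose. CYP705A5 (AT5G47990), the thalianol-pathway desaturase, was at 48.2 FPKM in WT, 66.6 in hhp1, 52.2 in mbd124, 92.6 in sant1234-null and 70.9 in hda6. All 4 mutants lay above WT, with sant1234-null highest. In the authors' deposited table its rise had an adjusted p of 0.000723 in sant1234-null (log2 0.94 ± 0.16, SE derived from the test), 0.0273 in hhp1 (0.46 ± 0.14) and 0.00946 in hda6 (0.58 ± 0.17). CYP708A2 (AT5G48000), the thalianol hydroxylase, was at 56.7 FPKM in WT, 85.4 in hhp1, 65.1 in mbd124, 94.1 in sant1234-null and 72.6 in hda6. Its calls in the authors' deposited table were in hhp1 (log2 0.59 ± 0.14) and sant1234-null (0.73 ± 0.16). THAS1, the thalianol synthase beside them, rose too, from 37.0 to 66.3 FPKM in sant1234-null and from 37.0 to 51.2 in hhp1. Of the 5 tested non-P450 genes of the triterpene clusters, 4 rose in sant1234-null, 2 in hhp1, 1 in mbd124 and 0 in hda6. None of them fell in any mutant.

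The P450s of the marneral cluster, also on chromosome 5, had larger log2 changes than those of the thalianol cluster in hhp1 and sant1234-null. In hda6 their changes were similar in size to those of the thalianol P450s, and the clusters were not tested against each other. CYP71A16 (AT5G42590), which oxidises marneral products, was at 5.15 FPKM in WT, 11.7 in hhp1, 7.95 in mbd124, 16.5 in sant1234-null and 7.79 in hda6. It was called higher in all 4 mutants in the authors' deposited table, with log2 changes of 1.18 ± 0.15, 0.63 ± 0.17, 1.67 ± 0.17 and 0.62 ± 0.18. CYP705A12 (AT5G42580), its neighbour, was at 2.43 FPKM in WT, 4.97 in hhp1, 2.68 in mbd124, 7.71 in sant1234-null and 3.10 in hda6. Only hhp1 (1.03 ± 0.19) and sant1234-null (1.66 ± 0.20) passed the test in the authors' deposited table. MRN1, the marneral synthase, was at 0.562 FPKM in WT and 3.0 in sant1234-null, and it was also called in hhp1 and mbd124. Outside both clusters, CYP716A2, a triterpene oxidase, was at 0.710 FPKM in WT, 1.97 in hhp1, 1.84 in mbd124, 3.08 in sant1234-null and 3.49 in hda6, and all 4 rises were called. CYP76C1, which oxidises the monoterpene linalool, was the member of the list that fell, from 16.8 FPKM to 11.8 in hhp1 and 12.2 in sant1234-null. CYP76C2, of the same subfamily, was among the members of the list that rose in sant1234-null, with a log2 change of 1.01.

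**Figure D1:**
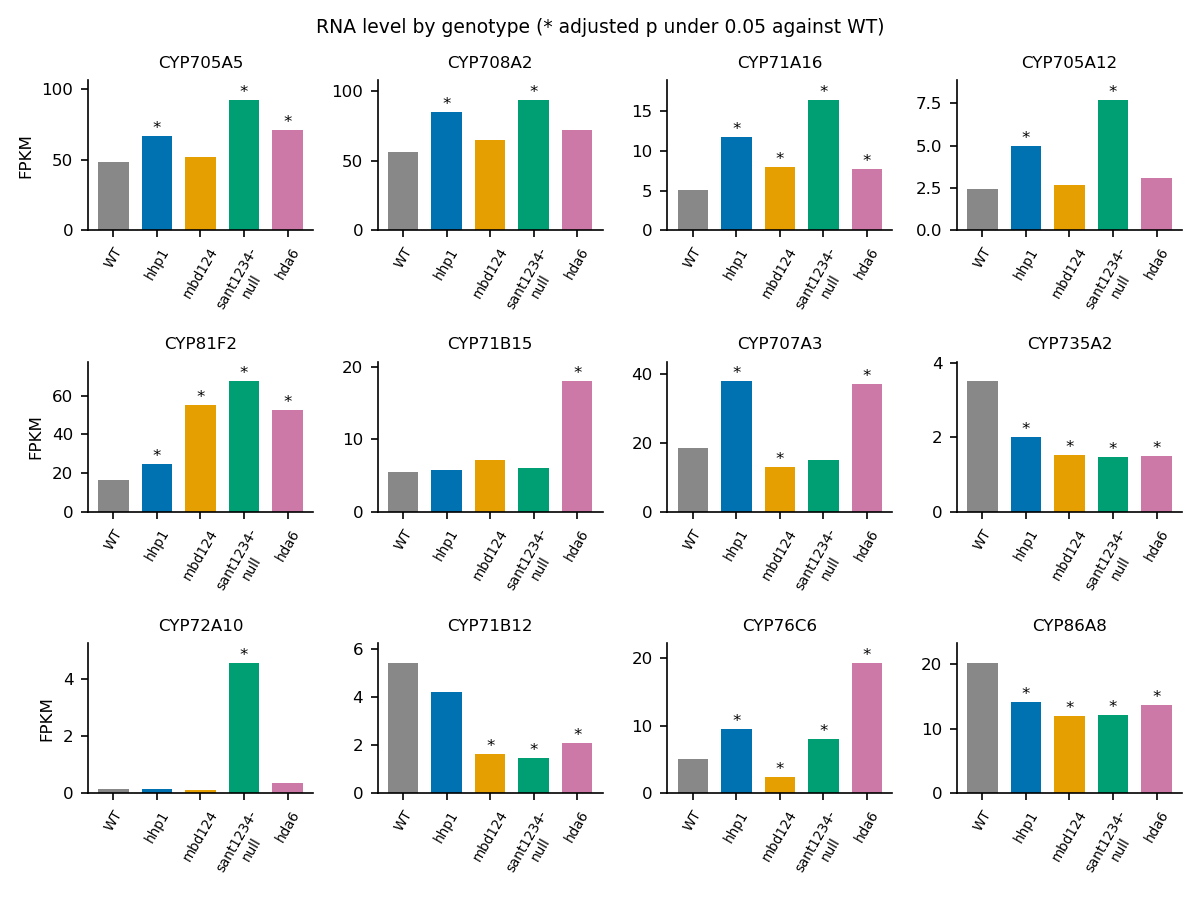
RNA level in FPKM (linear axis from 0) of 12 P450 members in WT (median of the 4 tables) and the 4 mutants, 1 value per genotype with no replicate error in the files. Stars mark an adjusted p under 0.05 against WT; CYP81F2 and CYP71A16 stand above WT in all 4 mutants and CYP735A2 and CYP86A8 below it.

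Several enzymes of indole glucosinolate and camalexin synthesis rose. In this list of 15, 5 of 11 tested members rose in hda6 and none fell. In sant1234-null 2 of 10 rose, in mbd124 2 rose and 1 fell, and in hhp1 1 of 11 rose and 2 fell. The fall in mbd124 was that of CYP71A12, from 12.0 to 8.26 FPKM. Of all tested genes, 7.25% were called higher in hda6, 9.33% in sant1234-null, 4.85% in mbd124 and 2.88% in hhp1. At an unadjusted p under 0.05, 5 members of the list were higher and 1 lower in hda6, and 4 and 1 in sant1234-null. By the same measure 3 were higher and 2 lower in mbd124 and in hhp1, and the difference between mutants was not itself tested. CYP81F2 (AT5G57220), which modifies indole glucosinolates and is needed for their part in defence, was at 16.5 FPKM in WT, 24.9 in hhp1, 55.1 in mbd124, 67.5 in sant1234-null and 52.7 in hda6. The 3 latter mutants lay well above hhp1, and in the authors' deposited table all 4 rises were called, with log2 changes of 0.59 ± 0.14, 1.74 ± 0.16, 2.03 ± 0.16 and 1.70 ± 0.17. CYP83B1, which commits indole aldoxime to glucosinolates, was at 119 FPKM in WT, 129 in hhp1, 164 in mbd124, 175 in sant1234-null and 220 in hda6. It was called in the last 3, most strongly in hda6 (log2 0.91 ± 0.18, adjusted p = 0.000899 in the authors' deposited table).

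CYP71B15 (AT3G26830), the last enzyme of camalexin synthesis, was at 5.54 FPKM in WT, 5.75 in hhp1, 7.21 in mbd124, 6.11 in sant1234-null and 18 in hda6. It was called in hda6 alone (log2 1.73 ± 0.18 in the authors' deposited table), and the difference between the mutants was not itself tested. CYP71A13 (AT2G30770), which makes the nitrile used for camalexin, was at 0.405 FPKM in WT, 0.548 in hhp1, 0.161 in mbd124, 0.189 in sant1234-null and 2.28 in hda6. Its rise in hda6 had a log2 of 2.52 ± 0.80 and an adjusted p of 0.0356 in the authors' deposited table. Its coding DNA is 90.4% identical to that of CYP71A12, at 12.0 FPKM in WT, and the gene is overlapped on the other strand by AT2G30766, at 0.938 FPKM in WT and 1.12 in hda6. The handling of shared reads and strand is unknown here, so the split between them is uncertain. CYP79B2 and CYP79B3, which turn tryptophan into the aldoxime, went the other way in hhp1. CYP79B2 was at 29.5 FPKM in WT, 20.6 in hhp1, 30.05 in mbd124, 34.4 in sant1234-null and 42.3 in hda6, called lower in hhp1 and higher in hda6. CYP79B3 fell from 30.7 to 19.4 FPKM in hhp1.

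Genes that work with these enzymes were also called higher. Of 12 tested partners of the pathway (regulators, transferases and transporters), 3 rose in hhp1, 8 in mbd124, 7 in sant1234-null and 6 in hda6, and none fell. The shares of all tested genes called higher were 2.88%, 4.85%, 9.33% and 7.25% in the same order. WRKY33, a regulator of camalexin genes, was at 44.7 FPKM in WT, 100.4 in hhp1, 107 in mbd124, 98.3 in sant1234-null and 157 in hda6. MYB51, a regulator of indole glucosinolate genes, was at 24.5 FPKM in WT and between 36.6 and 57.5 in the mutants, highest in hda6. IGMT1, which methylates indole glucosinolates after CYP81F2 has acted, rose from 33.2 to 84.8 FPKM in mbd124 and from 33.3 to 85.6 in sant1234-null. Of 7 redox partners, ATR2, a P450 reductase, was at 115 FPKM in WT and 215 in mbd124, 244 in sant1234-null and 167 in hda6, called in all 3. CYTB5-C, a cytochrome b5, rose in sant1234-null from 30.7 to 46.1 FPKM, and no redox partner was called in hhp1.

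Among hormone enzymes, some P450s of abscisic acid, cytokinin and jasmonate were called changed, and none of the brassinosteroid list was. CYP707A3 (AT5G45340), an abscisic acid hydroxylase, was at 18.6 FPKM in WT, 38.0 in hhp1, 13.1 in mbd124, 15.0 in sant1234-null and 37.2 in hda6. It rose in hhp1 (log2 1.03 ± 0.14) and hda6 (1.02 ± 0.17) and fell in mbd124 (-0.51 ± 0.15) in the authors' deposited table. In mbd124 its relative CYP707A2 rose from 0.782 to 2.26 FPKM and CYP707A1 fell from 8.09 to 5.89. NCED3, which makes the abscisic acid precursor, rose in mbd124 from 2.82 to 20.7 FPKM, in sant1234-null from 2.83 to 7.91 and in hda6 from 2.77 to 4.58. Of the 5 tested genes of abscisic acid synthesis, NCED3 among them, 1 rose and 1 fell in mbd124. In sant1234-null 2 rose, in hda6 1 rose and in hhp1 0 were called. Their median log2 change was -0.13 in hhp1, 0.11 in mbd124, -0.09 in sant1234-null and 0.06 in hda6. Of all tested genes, 6.14% were called in hhp1, 11.3% in mbd124, 15.3% in sant1234-null and 12.0% in hda6. CYP735A2 (AT1G67110), which makes trans-zeatin cytokinins, was at 3.51 FPKM in WT, 2.01 in hhp1, 1.53 in mbd124, 1.48 in sant1234-null and 1.49 in hda6. It was lower in all 4 mutants, with log2 changes between -1.25 and -0.81 in the authors' deposited table. CYP711A1, the MAX1 enzyme of strigolactone synthesis, rose in hhp1 from 11.7 to 16.5 FPKM.

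CYP94C1, which oxidises the active jasmonate, was at 3.34 FPKM in WT, 1.86 in hhp1, 1.71 in mbd124, 1.85 in sant1234-null and 3.16 in hda6. It fell in the first 3 and did not pass in hda6. CYP94B1, of the same catabolic route, fell from 3.54 to 1.87 FPKM in mbd124, and CYP94B2 rose from 0.840 to 1.99 in sant1234-null. CYP74B2, a hydroperoxide lyase of the oxylipin pathway, was at 2.35 FPKM in WT, 3.0 in hhp1, 3.12 in mbd124, 2.27 in sant1234-null and 0.853 in hda6, and it was called lower in hda6. Among 8 tested brassinosteroid P450s, 3 gibberellin P450s and 3 carotenoid P450s, 0 were called in any mutant by the authors' test. Of all tested genes, 6.14% were called in hhp1, 11.3% in mbd124, 15.3% in sant1234-null and 12.0% in hda6. At these shares lists of 3 or 8 genes are too small for 0 calls to stand out. At an unadjusted p under 0.05 the brassinosteroid list had 1 member lower in hhp1, 1 higher in mbd124, 0 in sant1234-null and 1 lower in hda6. By the same measure the carotenoid list had 2 lower in hhp1, 1 in sant1234-null and 1 in hda6, and the gibberellin list 1 higher in sant1234-null and 2 in hda6. The median log2 change of the brassinosteroid list lay between -0.00 and 0.13. That of the 3 gibberellin members, of 6 names listed, was 0.17 in hhp1, 0.21 in mbd124, 0.64 in sant1234-null and 0.72 in hda6, and that of the carotenoid list -0.29, -0.08, -0.21 and -0.29.

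The phenylpropanoid list changed in a single gene, CYP75B1, which hydroxylates the flavonoid B ring. It was at 5.50 FPKM in WT, 9.19 in hhp1, 3.47 in mbd124, 6.07 in sant1234-null and 4.76 in hda6, called higher in hhp1 and lower in mbd124. Its pathway partners moved on both sides too. In hhp1 3 of 15 rose, with DFRA, which reduces dihydroflavonols, going from 24.2 to 57.2 FPKM. In mbd124 6 of 15 fell, DFRA among them from 24.1 to 7.04 FPKM and FLS1, flavonol synthase, from 34.2 to 16.3. Of the same 15 partners, 2 fell and 0 rose in each of sant1234-null and hda6. Among 7 tested cutin, suberin and wax P450s, 2 rose and 1 fell in hhp1 and in sant1234-null, 2 fell in mbd124, and 1 rose and 2 fell in hda6. Those called higher make suberin, the barrier polymer of roots, and those called lower make cutin. The tested members CYP86A2, also of cutin synthesis, and CYP86A7 were called in no mutant. CYP86A1, the suberin fatty acid hydroxylase, was at 30.4 FPKM in WT, 42.7 in hhp1, 39.5 in mbd124, 50.6 in sant1234-null and 41.2 in hda6, and rose in hhp1, sant1234-null and hda6. CYP86B1, its very-long-chain counterpart, rose from 7.15 to 9.99 FPKM in hhp1 and to 10.5 in sant1234-null. CYP86A8, a cutin enzyme known as LACERATA, was at 20.2 FPKM in WT, 14.1 in hhp1, 12.0 in mbd124, 12.2 in sant1234-null and 13.6 in hda6, and fell in all 4. CYP86A4 fell in mbd124 and CYP77A6 in hda6, both enzymes of cutin in flowers. The suberin partner GPAT5, an acyltransferase, rose from 5.08 to 8.83 FPKM in sant1234-null and was also called in hhp1 and hda6. Of the 12 tested partners of cutin, suberin and wax, 3 rose and 0 fell in hhp1, and 2 rose and 2 fell in mbd124. In each of sant1234-null and hda6, 4 rose and 1 fell. Beside the counts of this paragraph, 2.88% of all tested genes were called higher and 3.26% lower in hhp1. These shares were 4.85% and 6.42% in mbd124, 9.33% and 5.93% in sant1234-null, and 7.25% and 4.79% in hda6. A single call in lists of this size is near them.

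**Figure D2:**
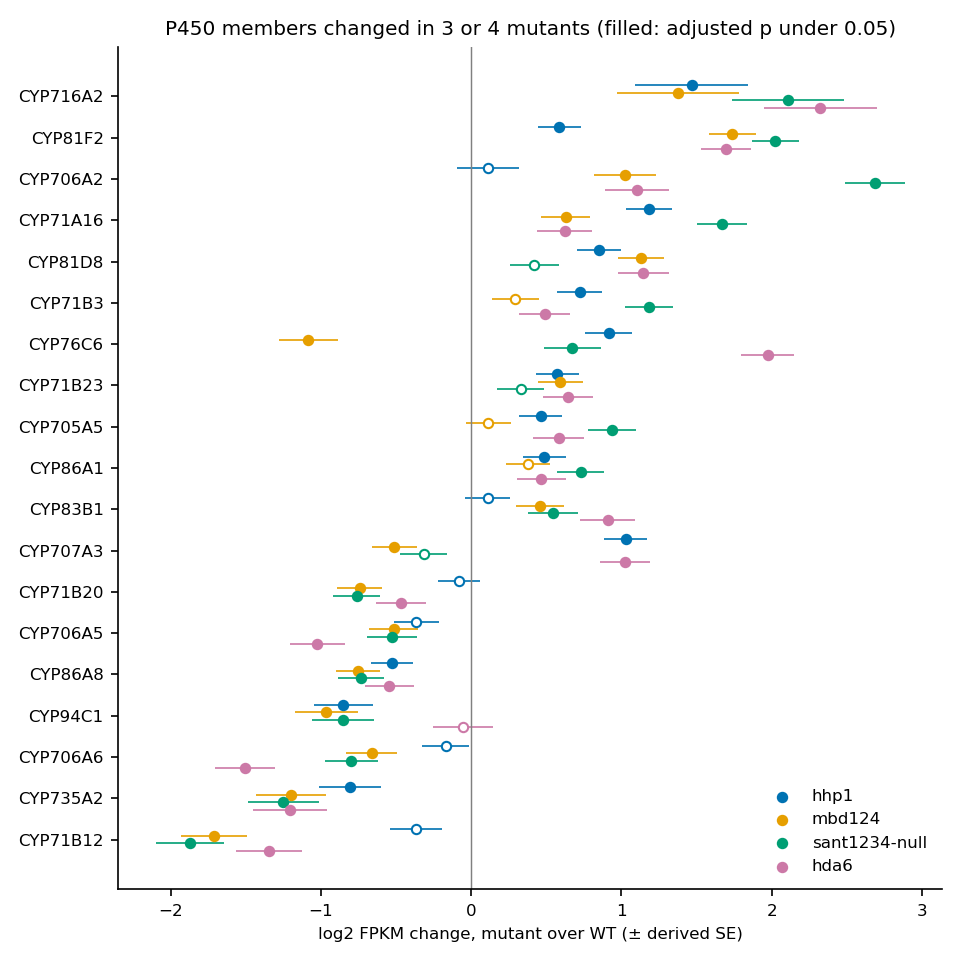
Log2 FPKM change of each mutant over WT for the 19 members called in 3 or 4 mutants, with SE derived from the authors' test statistic; filled points passed an adjusted p under 0.05. CYP716A2, CYP81F2 and CYP71A16 lie to the right of 0 in all 4 mutants and CYP735A2 and CYP86A8 to the left, while CYP76C6 and CYP707A3 are lower in mbd124 and higher in others.

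The members called in all 4 mutants were 6: CYP71A16, CYP716A2 and CYP81F2 higher in each, CYP735A2 and CYP86A8 lower in each, and CYP76C6 in both directions. Since WT is shared, calls in several mutants are not independent. CYP76C6, of a subfamily known for oxidising monoterpenols, was at 5.0 FPKM in WT, 9.45 in hhp1, 2.35 in mbd124, 8.00 in sant1234-null and 19.3 in hda6. Altogether 8 members were called in opposite directions, 9.41% of the 85 called, beside 190 of the 5255 genes called at least once (3.62%). Those called in all 4 mutants were 7.06% of the called members and 5.94% of all called genes. In 7 of the 8 the lower call was in mbd124, the mutant with the most lower calls among members and the place of the lower call in 113 of the 190 genes (CYP722A1, CYP76C6, CYP710A4, CYP72A8, CYP71A20, CYP75B1 and CYP707A3), while CYP79B2 was lower in hhp1. CYP72A8 was at 42.9 FPKM in WT, 64.5 in hhp1, 25.7 in mbd124, 38.8 in sant1234-null and 52.0 in hda6. CYP71A20 was at 1.43 FPKM in WT, 1.28 in hhp1, 0.636 in mbd124, 4.22 in sant1234-null and 1.58 in hda6. CYP722A1 was at 3.12 FPKM in WT, 4.74 in hhp1 and 1.88 in mbd124, and CYP710A4, a sterol desaturase with a copy 95.8% identical, at 0.723 in WT, 0.217 in mbd124 and 1.65 in sant1234-null. The differences between mutants were not themselves tested. Members called lower in 3 mutants included CYP71B12, at 5.43 FPKM in WT, 4.22 in hhp1, 1.66 in mbd124, 1.49 in sant1234-null and 2.10 in hda6, and CYP706A6, at 5.05 in WT and 1.75 in hda6. CYP81D8, a stress-responsive member, was at 9.31 FPKM in WT, 16.8 in hhp1, 20.4 in mbd124, 12.5 in sant1234-null and 20.2 in hda6, and rose in all but sant1234-null. CYP78A7 and CYP78A6, of a subfamily that promotes organ growth, rose in mbd124, from 0.196 to 0.978 and from 0.451 to 1.07 FPKM.

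The largest called log2 change of any member was that of CYP72A10 (AT3G14640). It was at 0.141 FPKM in WT, 0.148 in hhp1, 0.113 in mbd124, 4.57 in sant1234-null and 0.376 in hda6. Its level stood apart in sant1234-null, with a log2 change of 5.02 ± 0.55 and an adjusted p of 0.000723 in the authors' deposited table, and it was too low to be tested in the other mutants. The next largest called, CYP706A2, was at 2.28 FPKM in WT, 2.46 in hhp1, 4.63 in mbd124, 14.7 in sant1234-null and 4.80 in hda6. Its coding DNA is 97.7% identical to that of its neighbour CYP706A1, which was at 94.0 FPKM in WT and 133 in sant1234-null, so the split of reads between the pair is uncertain. Across the family 38 members have a closest member of at least 90% identity and 6 of at least 95%. Of the called members, 9 overlap another gene (CYP722A1, CYP705A27, CYP705A25, CYP708A1, CYP711A1, CYP71A13, CYP712A1, CYP704A2 and CYP81D11), each on the other strand.

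Of the subfamilies with at least 6 members, CYP705A had the most RNA called higher in sant1234-null and in hda6. This subfamily of 24 members holds CYP705A5 and CYP705A12 beside others without a role listed here. Of all tested genes, 9.33% were called higher in sant1234-null, 7.25% in hda6, 2.88% in hhp1 and 4.85% in mbd124. Of the 19 tested CYP705A members, 10 rose in sant1234-null, 7 in hda6, 2 in hhp1 and none in mbd124, with 0 lower calls. At an unadjusted p under 0.05, 12 were higher in sant1234-null, 12 in hda6, 4 in hhp1 and 2 in mbd124, and 0 were lower in any. Its median log2 change was 0.67 in sant1234-null, 0.50 in hda6, 0.22 in hhp1 and 0.19 in mbd124. CYP705A19 was at 15.0 FPKM in WT, 18.1 in hhp1, 13.3 in mbd124, 25.03 in sant1234-null and 20.1 in hda6. CYP705A33 was at 5.66 FPKM in WT, 5.63 in hhp1, 6.98 in mbd124, 9.03 in sant1234-null and 8.67 in hda6. CYP705A13, which stands in no array, was at 3.55 FPKM in WT, 4.14 in hhp1, 3.79 in mbd124, 6.82 in sant1234-null and 5.48 in hda6. Members that rose in sant1234-null lie on all 5 chromosomes, and 9 tested members did not pass, among them CYP705A21 at 9.48 FPKM in WT and 8.76 in sant1234-null. The larger subfamily CYP71B, with 34 members, went both ways, with 5 of 22 higher and 4 lower in sant1234-null and 5 of each in hda6. Lower calls made up 5.93% of all tested genes in sant1234-null and 4.79% in hda6.

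Neighbours in tandem arrays did not all move the same way. Members with gaps of at most 10 kb form 41 arrays that hold 134 members, and 13 arrays of at least 4 hold 73. In the array of 9 CYP71B genes on chromosome 3, 4 of 6 tested members rose in hhp1 and 3 rose and 1 fell in hda6. There CYP71B22 rose in hda6 from 11.7 to 24.3 FPKM and CYP71B3 from 7.75 to 10.7, while CYP71B20 fell from 40.4 to 28.7. CYP71B20 and CYP71B19 in this array are 96.2% identical, so their split is uncertain. In the array of 8 CYP72A genes, CYP72A10 and CYP72A14 rose in sant1234-null and CYP72A11 and CYP72A13 fell in hda6. The 4 genes of the CYP706A array on chromosome 4 split into CYP706A5 and CYP706A6, which fell in mbd124, sant1234-null and hda6, and CYP706A4 and CYP706A7, which were not called. In the array of 7 CYP705A genes, 2 of 6 rose in sant1234-null and in hda6, and in the array of 4 CYP705A genes 2 of 3 rose in each of them. In the array of 4 CYP89A genes the only call over the 4 comparisons was 1 lower in hhp1. In the array of 6 CYP71A genes 0 were called, although 1 was higher at an unadjusted p under 0.05 in hhp1, in sant1234-null and in hda6. With 3 or 4 tested members per comparison, these CYP89A and CYP71A arrays are too small for a lack of calls to stand out. Of all tested genes, 2.88% were called higher and 3.26% lower in hhp1, and 4.85% and 6.42% in mbd124. The shares were 9.33% and 5.93% in sant1234-null and 7.25% and 4.79% in hda6.

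**Figure D3:**
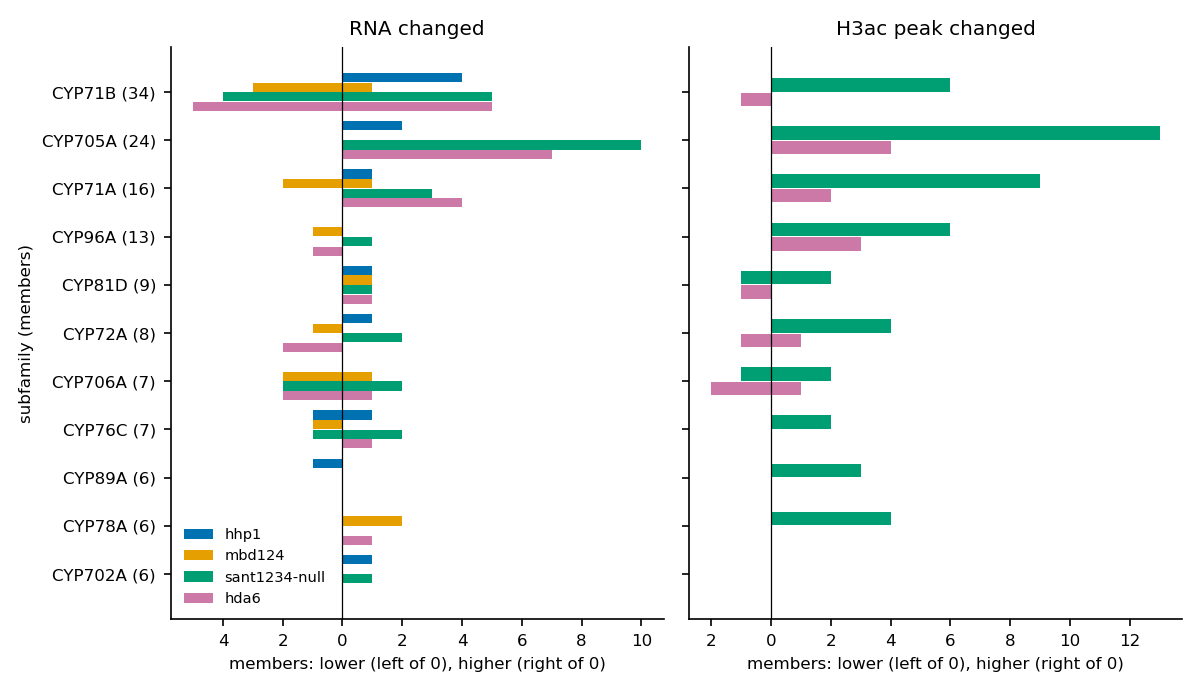
Number of members called higher (right of 0) and lower (left of 0) in each subfamily of at least 6 members, for RNA in 4 mutants and for H3ac peaks in 2; member numbers are in brackets. CYP705A shows higher calls only, with 10 for RNA and 13 for H3ac peaks in sant1234-null.

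The stretch of 200 bases before the annotated start of 7 of these members is shown, since they include both triterpene pairs and the defence and abscisic acid genes described above. Sequences are from RefSeq TAIR10.1 on the gene's strand, 5′ to 3′, and none holds part of another gene. Capitals mark the W-box core TTGAC, also as GTCAA on the other strand, and the G-box CACGTG.
CYP705A5 chr5:19434558-19434757 (+): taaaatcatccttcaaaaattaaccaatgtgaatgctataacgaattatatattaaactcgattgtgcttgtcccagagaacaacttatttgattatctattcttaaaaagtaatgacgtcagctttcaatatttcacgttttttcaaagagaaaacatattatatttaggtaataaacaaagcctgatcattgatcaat
CYP708A2 chr5:19447867-19448066 (-): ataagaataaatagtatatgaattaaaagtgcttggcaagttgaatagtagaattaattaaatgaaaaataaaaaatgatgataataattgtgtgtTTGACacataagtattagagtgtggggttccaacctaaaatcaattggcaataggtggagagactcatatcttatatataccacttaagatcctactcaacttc
CYP705A12 chr5:17025362-17025561 (-): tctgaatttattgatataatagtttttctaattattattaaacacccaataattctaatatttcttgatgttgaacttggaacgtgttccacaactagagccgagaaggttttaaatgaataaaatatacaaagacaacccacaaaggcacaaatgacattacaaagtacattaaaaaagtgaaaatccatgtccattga
CYP71A16 chr5:17033801-17034000 (-): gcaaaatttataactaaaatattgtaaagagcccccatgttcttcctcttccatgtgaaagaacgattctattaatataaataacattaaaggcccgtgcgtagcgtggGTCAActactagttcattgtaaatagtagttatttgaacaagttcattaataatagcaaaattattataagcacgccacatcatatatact
CYP81F2 chr5:23187640-23187839 (+): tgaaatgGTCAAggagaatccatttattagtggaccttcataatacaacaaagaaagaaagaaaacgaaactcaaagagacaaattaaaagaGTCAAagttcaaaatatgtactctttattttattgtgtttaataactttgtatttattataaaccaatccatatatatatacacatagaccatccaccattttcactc
CYP71A13 chr2:13111989-13112188 (-): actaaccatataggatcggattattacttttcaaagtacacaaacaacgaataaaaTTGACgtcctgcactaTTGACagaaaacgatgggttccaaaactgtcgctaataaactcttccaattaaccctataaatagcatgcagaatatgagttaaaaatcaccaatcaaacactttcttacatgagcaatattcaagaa
CYP707A3 chr5:18371022-18371221 (-): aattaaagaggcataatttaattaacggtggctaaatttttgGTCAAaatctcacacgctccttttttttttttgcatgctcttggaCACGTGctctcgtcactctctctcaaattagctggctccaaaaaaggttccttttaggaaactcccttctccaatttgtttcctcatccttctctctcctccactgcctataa
A W-box core stood in 43.1% of the 232 members' stretches and 38.1% of those of all genes, in 20 of the 40 members higher in sant1234-null, 16 of the 32 higher in hda6 and 42.2% of the 147 never called. The G-box stood in 4.74% of members and 5.11% of all genes. CYP81F2 and CYP71A13 hold 2 W-box cores each, CYP708A2, CYP71A16 and CYP707A3 hold 1, and CYP707A3 holds a G-box. CYP705A5 and CYP705A12 hold none in this window. A match is a description of letters and not a binding site.

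H3ac is a mark of active genes that HDA6 removes, and it was raised over P450 genes in sant1234-null. Peaks touched 183 members in that comparison, and 91 had a changed peak at an FDR under 0.05 (49.7%, against 33.9% of all genes with a peak). The peak was higher in 74 (40.4%, against 17.2%) and lower in 18 (9.84%, against 16.8%), with 1 member in both. In hda6 peaks touched 162 members, of which 31 changed (19.1%, against 35.2%). The peak was higher in 12 (7.41%, against 5.30%) and lower in 19 (11.7%, against 30.0%). Lower peaks thus made up a smaller share of members than of all genes with a peak in both mutants. The H3ac RPKM (reads scaled to gene length and library size) over whole genes, with 1 value per genotype and no test, had a median log2 ratio to WT of 0.25 over members and 0.07 over all genes in sant1234-null, and of 0.17 and 0.07 in hda6. It passed 1.5-fold higher in 43 members in sant1234-null (18.5%, against 11.6%) and in 7 in hda6 (3.02%, against 8.71%). It passed 1.5-fold lower in 1 member in sant1234-null (0.431%, against 3.20%) and in 0 in hda6 (against 2.52%).

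The change went with the level in WT. Members with a higher peak in sant1234-null had a median of 10.3 RPKM in WT, and those with a lower peak 30.7. Over all genes the ratio fell with the WT level as well: in sant1234-null its median was 0.28 for genes under 10 RPKM, -0.02 for those from 10 to under 20 and -0.29 for those of 20 or more. Members had medians of 0.33, 0.29 and -0.14 in the same ranges. In hda6 the medians were 0.31, -0.04 and -0.35 for all genes and 0.31, 0.12 and -0.29 for members. The members thus lay furthest from all genes at middle levels in sant1234-null, where 23.4% of 77 members and 7.54% of all genes passed 1.5-fold higher. These ranges were chosen after the values were seen. The part of the strength of each ChIP in these ratios was not tested.

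**Figure D4:**
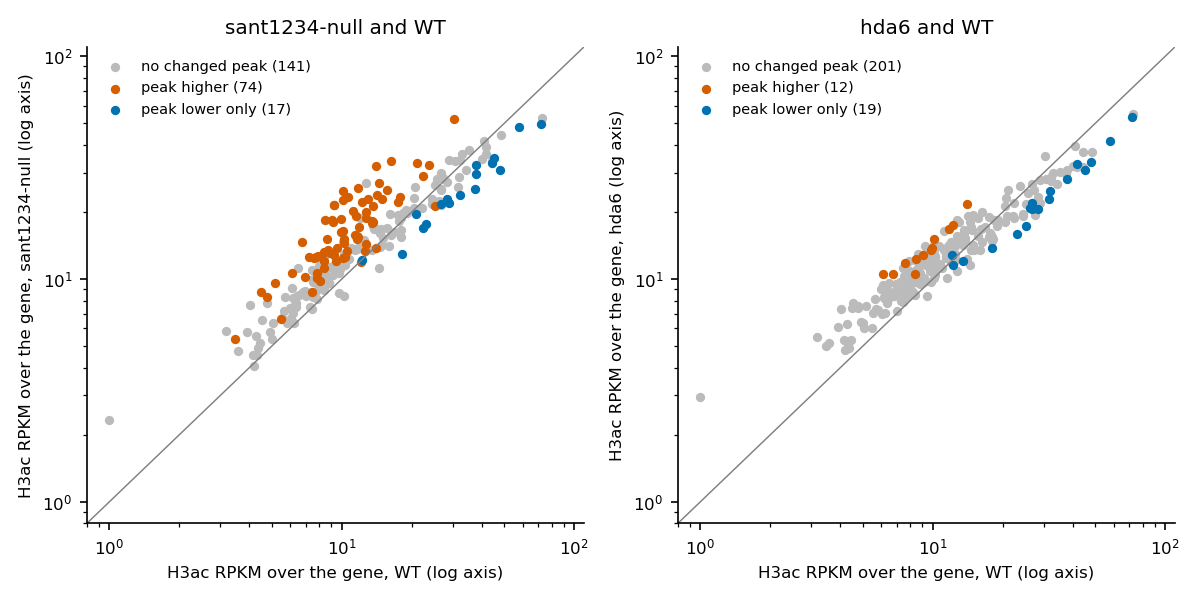
H3ac RPKM over the gene body in sant1234-null and in hda6 against WT for the 232 members (log axes, 1 value per genotype, grey line of equality), coloured by the authors' peak calls. In sant1234-null 71 of the 74 members with a higher peak lie above the line of equal RPKM and the members with a lower peak lie below it.

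Among the 8 largest gains of H3ac in sant1234-null was CYP72A10, which held 1626 H3ac reads in WT (95% Poisson interval 1548 to 1707, which covers counting error only), 4105 in sant1234-null (3980 to 4233) and 2178 in hda6 (2087 to 2271), which is 10.6, 23.4 and 14.0 RPKM. In the authors' deposited table its peak at chr3:4920179-4920579 (TAIR10), centred 622 bp after the start, went from a log2 concentration of 4.37 in WT to 7.51 in sant1234-null, with an FDR of 1.88e-14. CYP705A13 was at 14.0 RPKM in WT, 32.3 in sant1234-null and 21.8 in hda6, and its peak near the start was higher in both mutants. CYP98A8, a pollen phenylpropanoid enzyme, was at 10.1 RPKM in WT, 24.8 in sant1234-null and 14.3 in hda6, while its RNA stayed low, at 0.118 FPKM in WT and 0.341 in sant1234-null. CYP96A13 and CYP89A3, listed at 0 FPKM in WT, went from 9.23 and 9.24 RPKM to 21.5 each in sant1234-null. Of the 82 higher peaks of members in sant1234-null, 59 had their centre within 1 kb after the gene start, at a median of 495.5 bp, and 9 were listed at a log2 concentration of 0 in WT. Those 9 include the peaks of CYP71A26, CYP71A20, CYP78A5 and CYP81D2. CYP706A4 was at 47.8 RPKM in WT, 30.9 in sant1234-null and 33.6 in hda6, and CYP86A2 at 72.1, 49.5 and 53.4. 

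Some members had a changed peak in each mutant, in comparisons that share the WT libraries. CYP705A18 was at 9.87 RPKM in WT, 18.6 in sant1234-null and 13.8 in hda6, and CYP71A23 at 12.2, 22.3 and 17.4, each with a higher peak in each mutant. CYP81F1, at 45.0, 34.8 and 30.7 RPKM, had a lower peak in each. In CYP705A, 13 of the 22 members with a peak were higher in sant1234-null and 4 of 23 in hda6, with none lower. CYP96A, whose RNA was mostly under 1 FPKM, had 6 of 9 higher in sant1234-null and 3 of 8 in hda6, and CYP71A 9 of 13 and 2 of 10. Beside these, a higher peak was called in 40.4% of all members with a peak in sant1234-null and 7.41% in hda6. Among all genes with a peak the shares were 17.2% and 5.30%.

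Some members rose in both H3ac and RNA and others in 1 of them. Of the 74 members with a higher peak in sant1234-null, 35 were under 1 FPKM in WT and 48 were tested for RNA, of which 19 rose and 1 fell. Of the 12 in hda6, 6 were tested and 2 rose. Most members with a lower peak had no called fall of RNA: of 16 tested in sant1234-null 1 fell, and of 19 tested in hda6 2 fell. Beside these counts, 24.5% of all tested members were called higher and 6.75% lower in sant1234-null, and 19.8% and 9.26% in hda6. The falls among members with a lower peak were thus near the share of all tested members. Across members tested for RNA, the H3ac ratio and the log2 RNA change had a Spearman rho of 0.37 in sant1234-null (163 genes; 0.23 over 21347 genes) and 0.32 in hda6 (162 genes; 0.07 over 21285). These are correlations across genes that share libraries and are given as a description. CYP81F2, whose RNA rose in all 4 mutants, had no changed peak: its RPKM was 25.1 in WT, 26.4 in sant1234-null and 21.6 in hda6. CYP71B15 was likewise at 14.7, 16.7 and 16.5 RPKM, and CYP708A2 at 7.45, 7.33 and 7.87. CYP71A16 had a higher peak in sant1234-null, at 10.1 RPKM in WT and 12.4 there. CYP86A8, whose RNA fell in all 4 mutants, was at 37.4 RPKM in WT, 25.3 in sant1234-null and 29.7 in hda6, with a lower peak in sant1234-null. CYP74B2 fell in RNA and in H3ac in hda6, from 25.2 to 17.2 RPKM.

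**Figure D5:**
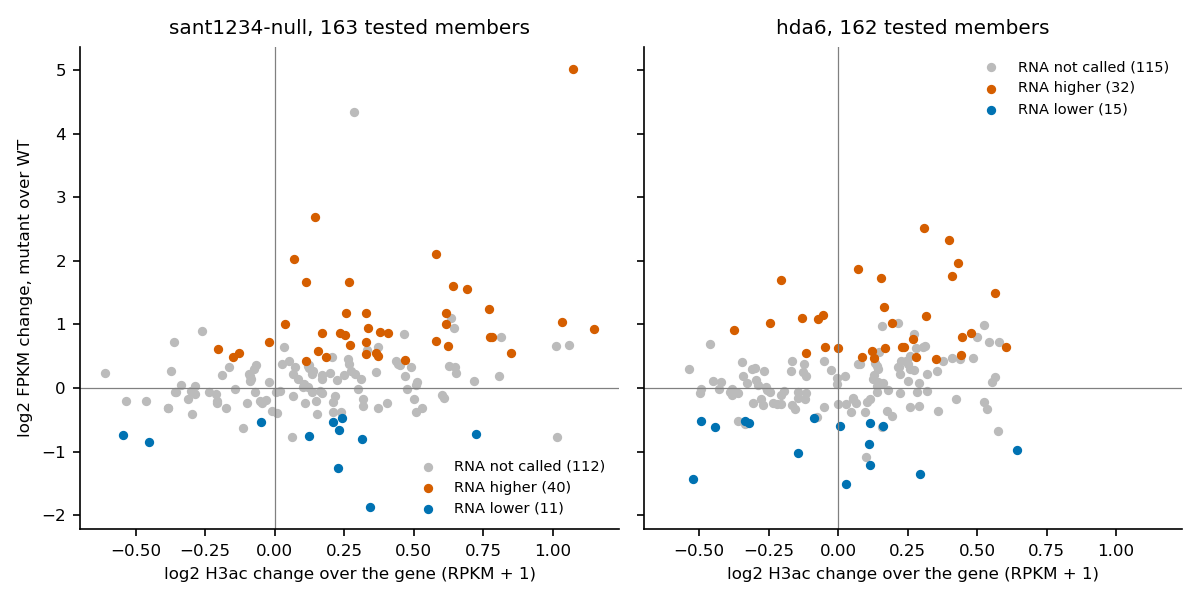
Log2 RNA change against log2 H3ac change (RPKM + 1 over the gene) of the tested members, 163 in sant1234-null and 162 in hda6, coloured by the RNA call. Of the 40 members higher in sant1234-null, with CYP72A10 at the top, 36 lie to the right of 0, as do 118 of all 163. Of the 32 higher in hda6 24 do, as do 97 of all 162. CYP72A10 was not tested in hda6 and is not drawn there.

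Transposable elements (TEs) near the members gave few values. A TE overlaps 45 members and lies within 1 kb of 107, of which 41 are among the 85 called members. Of the 218 such TEs only 4 or 5 were tested in a comparison, and 1 was called: the authors' deposited table has AT5TE31350, in CYP71B13 and next to CYP71B12, at 514 FPKM in WT and 309 in hda6, a fall. The WT value of this TE was 743 FPKM in the comparison with hhp1, 736 with mbd124 and 725 with sant1234-null. Levels of TEs can thus not be set side by side between comparisons. The TE had log2 changes of 0.15 in mbd124 and -0.11 in sant1234-null, neither called, whereas CYP71B12, which it does not overlap, fell in all 3 of these mutants. CYP71B13, which it overlaps, was at 5.28 FPKM in WT and 3.82 in hda6 and was not called.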

How the data were processed

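RNA-seq of 15 samples and H3ac ChIP-seq of 9 ChIP and 9 input samples were assigned to genotypes from their labels; the series design gives 3 independent biological replicates for each. The submitters' processing notes list, without saying what each did, bedtools, MACS2 2.1.1.20160309, DiffBind, TopHat2 2.0.12, Bowtie2 2.4.1, CASAVA, Cuffdiff and Cufflinks 2.2.1, and the build TAIR10. How strand and reads matching several genes were treated is unknown here. Per the file headers, the deposited RNA tables hold 1 FPKM per genotype, a test statistic (a score), a p-value and a q-value, which is the Benjamini-Hochberg adjustment over tested genes. The deposited ChIP tables hold a read count, gene length, mapped reads and an RPKM per genotype, with no input subtracted. The deposited peak tables hold log2 concentrations, the authors' fitted log2 fold, a p-value and an FDR. Columns of per-sample values left unused numbered 0.

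Here, log2 changes were computed from FPKM, and SEs as the log2 change over the statistic times 1.74, the factor at which a normal test gives the deposited p-value. The adjustment, calls and SEs were tested on simulated data. A member counts as called when the authors marked it as tested and its q-value was under 0.05. Peaks were assigned by an overlap of 1 bp. H3ac ratios used RPKM + 1 and at least 50 reads. Coding and upstream sequences came from RefSeq TAIR10.1 (all 232 members matched), and identities from alignments of coding DNA of at least 600 aligned bases. Python 3.11.15, pandas 2.3.3, numpy 2.4.6, scipy 1.17.1 and Biopython 1.88 were used. The named members were drawn mainly from set groups, and not every gene of a group is described. Per RNA comparison these groups were the 12 largest called rises and falls and every called member of the role lists. Further groups were the members called in 3 or 4 mutants or in opposite directions and the 10 highest in WT. The 8 largest H3ac rises and falls and the arrays of at least 4 were also used. The members and lists were chosen with earlier results of these data known. Input libraries were not analysed here. Alternatives were stricter thresholds, pseudocounts, centring, scaling, read minimums and peak overlap rules.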

Additional observations from a re-analysis of the deposited data

How the results depend on the processing

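Counts of called members fell under stricter rules and kept within 1.5 times otherwise. With calls also required to pass a log2 change of 1 in size, 4 members were left in hhp1, 12 in mbd124, 16 in sant1234-null and 20 in hda6, against 27, 32, 51 and 47. The direction of most calls turned in mbd124, from 10 higher and 22 lower to 7 higher and 5 lower. At an adjusted p under 0.01, 20 were left in mbd124 and 30 in hda6. At an FDR under 0.01, 16 members had a changed H3ac peak in hda6 against 31, and 8 of these were higher and 8 lower. The other 41 checks of counts and medians stayed on the same side and within bounds (a median log2 H3ac ratio within 0.1, a median RNA change within the median SE of members). Scaling H3ac by the median ratio over all genes took the members' median from 0.25 to 0.18 in sant1234-null and from 0.17 to 0.10 in hda6. For single members, adding 1 to FPKM moved 42 of 109 log2 changes by more than their SE, with no change of sign, which touches low genes such as CYP72A10 and CYP71A13. No paired analysis was possible because the tables hold 1 value per genotype, and for the same reason leaving out a replicate was not run. Depth limits the 63 members tested in no comparison, none above 0.483 FPKM in WT.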
